A study of Mus musculus with 24 samples.

Results

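The laminin chains measured in epididymal white adipose tissue (eWAT) were the α chains *Lama2*, *Lama4* and *Lama5*, the β chains *Lamb1* and *Lamb2*, and the γ chain *Lamc1*. They were taken by their gene symbols, and all 6 were among the 16730 genes of the count table and the 15020 genes that passed the filter on low counts. RNA came from the eWAT of 24 male mice, 6 in each of 4 groups, collected after 20 weeks on the diet at 24 to 26 weeks of age. *Lama4* fl/fl mice carried loxP sites around exon 3 of *Lama4* in both copies and had no Cre. *Lama4* AKO mice carried the same floxed alleles and an adiponectin-Cre transgene, which is active in adipocytes, so that *Lama4* in vessels and other cells of the tissue was not targeted. In each genotype, 6 mice ate breeder chow and 6 a high-fat diet (HFD) with 45% fat. The mice were littermates on a C57BL/6J background, from a targeted C57BL/6N stem cell line, and the submitters gave their strain as LFKO. All 4 groups therefore shared the floxed allele, and no group without it is among the 24 mice.

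Laminins are cross-shaped proteins made of 1 α, 1 β and 1 γ chain, which are joined inside the cell before secretion. They are the scaffold on which a basement membrane forms, the thin matrix sheet that surrounds each adipocyte and lies under the endothelium of each vessel. Most laminins with an α2, α4 or α5 chain share the γ1 chain encoded by *Lamc1*. The α4 chain lacks the long amino-terminal arm through which other laminins bind each other, and it is found in adipocyte and vessel basement membranes. The α2 chain is best known from muscle and peripheral nerve, and the α5 chain from vessels and epithelia.

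On GRCm38, *Lama4* (ENSMUSG00000019846) occupies the forward strand at chr10:38965515-39110188. Its longest consensus coding transcript in GENCODE M21 has 38 exons, 6046 spliced bases and a reading frame of 1816 residues. Exon 3 of this transcript, at chr10:39010998-39011122, is the coding exon that would be lost, if the study counted exons in the same way, and it is held by 4 of the 7 annotated transcripts. It is shown because the genotype of every group rests on it.

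Lama4 exon 3: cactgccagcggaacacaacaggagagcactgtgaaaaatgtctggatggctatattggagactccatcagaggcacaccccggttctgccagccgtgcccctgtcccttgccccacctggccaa

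The exon has 125 bases, which leaves a remainder of 2 when divided into codons, and it begins after 99 whole codons. When exon 2 is joined to exon 4, the frame read in the annotated sequence runs for 16 further codons and ends at a TAA in exon 4, so 5.45% of the codons are kept. The join is shown with the last 15 bases of exon 2 in lower case and the first 15 bases of exon 4 in capitals.

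Lama4 join without exon 3: tccggattctgtctgCTTTGCAGAATCCTG

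QuantSeq reads the 3′ end of a transcript, and 5184 spliced bases lie between exon 3 and the end of the transcript. The counted end is thus present in transcripts with and without exon 3, and the counts of *Lama4* are no direct check of the deletion. Whether a transcript without exon 3 is as stable as an intact one was not tested. Whether a read came from a floxed or a deleted allele was not analysed here, and genotypes below are those of the labels.

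**Figure D1:**
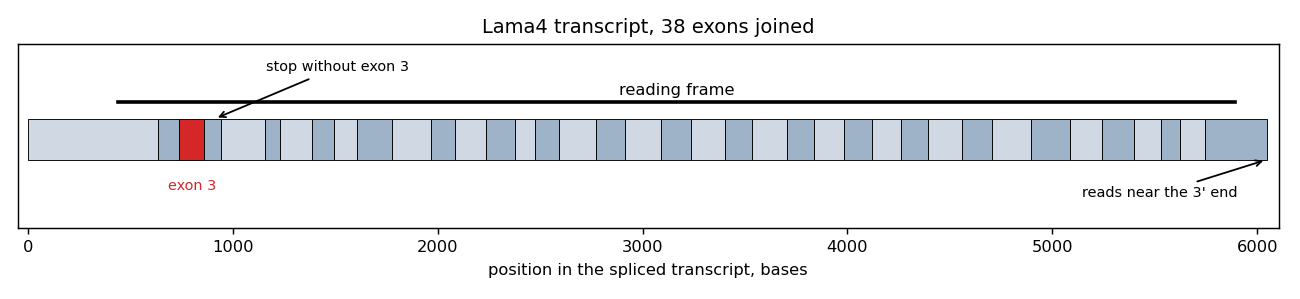
The 38 exons of the *Lama4* transcript are drawn to scale along the spliced transcript (horizontal axis, bases), with exon 3 in red and the reading frame as a line above. Exon 3 and the stop reached without it lie near the 5′ end, 5184 bases before the 3′ end, where QuantSeq counts.

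Of the other chains, *Lama2* (ENSMUSG00000019899) is at chr10:26980036-27619758, *Lama5* (ENSMUSG00000015647) at chr2:180176373-180225859 and *Lamc1* (ENSMUSG00000026478) at chr1:153218922-153332786, all on the reverse strand. *Lamb1* (ENSMUSG00000002900) is at chr12:31265234-31329644 and *Lamb2* (ENSMUSG00000052911) at chr9:108479736-108490530, both on the forward strand. Only *Lama2* shares its last kilobase with another annotated gene, Gm48084 on the opposite strand, which is not in the count table.

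Libraries held from 5579590 to 18764516 counts. The first principal component of all tested genes carried 45.8% of the variance and split the HFD fl/fl mice, with replicates 1, 2 and 5 at 73.5, 48.3 and 48.2 and replicates 3, 4 and 6 at −9.88, −76.1 and −60.4. Chow fl/fl replicates 1 and 3, at −91.8 and 46.8, chow AKO replicate 5, at 22.1, and HFD AKO replicate 6, at 0.85, were each at an end of their group. An earlier reading of these data inferred that the study set aside chow fl/fl replicate 3, chow AKO replicate 5 and HFD fl/fl replicates 3, 4 and 6, so results that change without the 5 are given for the other 19 mice too. Levels are counts scaled to library size (CPM, with TMM factors), and because reads sit at 3′ ends they are compared between mice and not between chains. In whole tissue, fewer cells of a type and less RNA in each cell cannot be told apart.

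Between diets in AKO mice, the chains split by direction. *Lama2* rose on HFD by 0.80 on the log2 scale, 1.74-fold, while *Lama4* differed by −1.05, *Lama5* by −0.80 and *Lamc1* by −0.70, and *Lamb1* and *Lamb2* by 0.18 and −0.07. A gene was called when it changed at least 1.5-fold, its nominal p was 0.001 or lower and its mean in the higher group reached 2 CPM, and *Lama2* met these criteria in this comparison alone. Over all genes 4.12% were called between diets in AKO mice, against 1 of the 6 chains. The median absolute log2 difference was 0.75 for the 6 chains and 0.40 for all 15020 genes. When the nominal p was replaced by an adjusted p of 0.05 or lower, 3 chains passed, *Lama2*, *Lama4* and *Lama5*, where 16.1% of all genes did.

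*Lama4* had 376 to 2147 counts per library. In chow fl/fl mice it was at 41.2 CPM in the lowest library, 91.7 at the median and 196 in the highest. Chow AKO mice ran from 64.2 through a median of 113 to 133 CPM. HFD fl/fl mice ran from 32.4 through 78.7 to 135 CPM, with replicates 1, 2 and 5 at 32.4, 60.6 and 46.8 and replicates 3, 4 and 6 at 96.7, 135 and 123. HFD AKO mice ran from 36.4 through 44.3 to 92.5 CPM, where replicate 6 was the highest and the other 5 were at or below 48.6. The order of mean log2 CPM was chow AKO (6.69 ± 0.40, SD, n = 6), chow fl/fl (6.46 ± 0.76), HFD fl/fl (6.19 ± 0.82) and HFD AKO (5.61 ± 0.47), and each step between neighbours was within 1 SD of the more variable group.

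**Figure D2:**
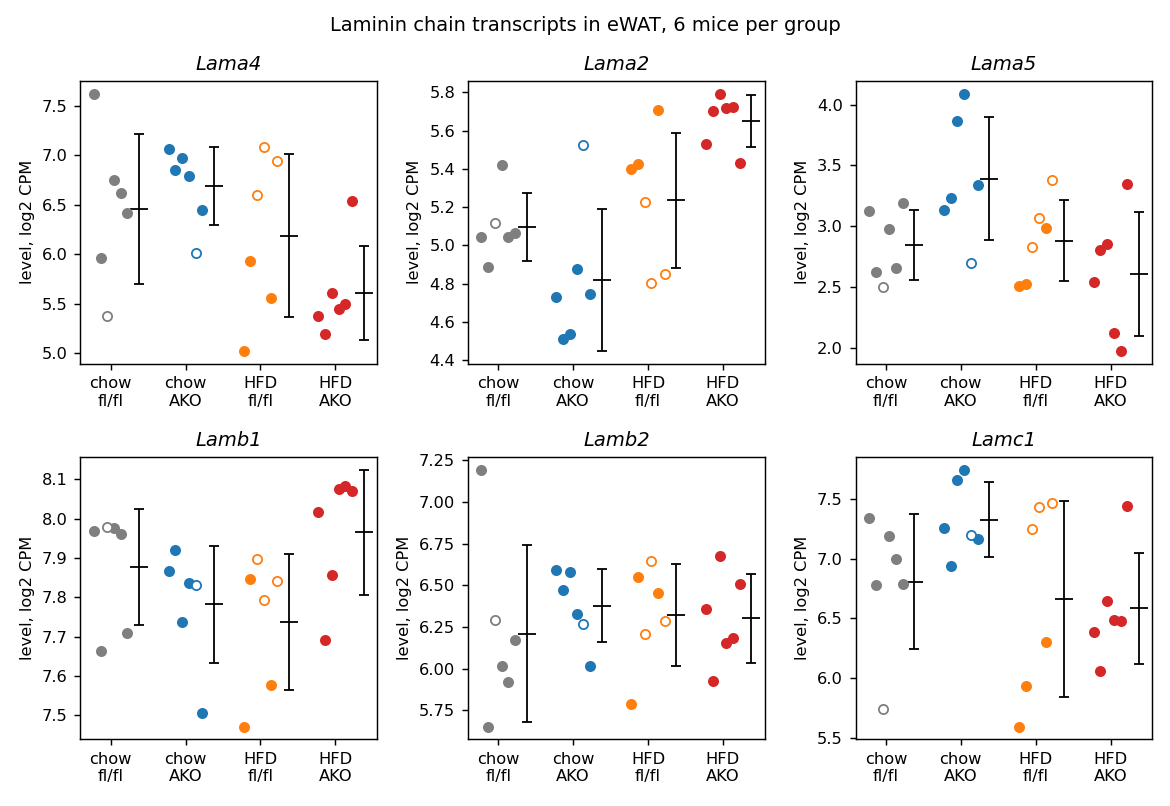
Level of each laminin chain (log2 CPM, vertical axis, a scale per panel) in the 6 mice of each group, with the mean and SD as a black bar and the 5 mice outside the set of 19 as open circles. *Lama2* in HFD AKO mice sits above all chow AKO mice but the open one, while *Lama4* in HFD fl/fl mice falls into a high set of 3 open circles and a low set of 3 filled ones.

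For *Lama4* the diet difference in AKO mice of −1.05 had a standard error of 0.35 and an adjusted p of 0.0364 by the quasi-likelihood test of edgeR, with a nominal p of 0.0059 that missed the threshold. A two-sided exact permutation test gave p = 0.0065, where 0.0022 is the smallest value that 6 against 6 allows, and 5 of 6 HFD libraries were below every chow library. Over the alternatives tried, the adjusted p ran from 0.000187 to 0.0790 and the difference from −1.31 to −0.97. In the 19 mice, which leave out the chow AKO mouse with the lowest *Lama4*, it was −1.16 and was called. In fl/fl mice the difference between diets was −0.25 (standard error 0.34, exact permutation p = 0.558) with all mice and −1.24 in the 19. There it missed the nominal threshold, but its adjusted p was 0.0114 in edgeR, and all 3 HFD mice were below all 5 chow mice (exact permutation p = 0.0357, the smallest that 5 against 3 allows). The 19 leave out the 3 HFD fl/fl mice with the highest *Lama4* and the chow fl/fl mouse with the lowest. These p-values therefore do not test diet apart from that choice of mice.

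Between genotypes, *Lama4* was not called on either diet. On chow the libraries labelled AKO differed from fl/fl by 0.11 (standard error 0.34, exact permutation p = 0.524). On HFD they differed by −0.69 (standard error 0.35, exact permutation p = 0.152), and the 6 AKO values lay inside the range of the 6 fl/fl values. In the 19 mice the HFD difference was 0.14, of the other sign, because the set leaves out the 3 HFD fl/fl mice with the highest *Lama4*. The interaction, that is the AKO diet difference minus the fl/fl one, was −0.80 with all mice (standard error 0.49, adjusted p = 0.401 in edgeR) and 0.08 in the 19.

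*Lama2*, with 252 to 846 counts per library, differed in the opposite direction to *Lama4* between diets in AKO mice. Its lowest, median and highest values were 29.5, 33.1 and 42.7 CPM in chow fl/fl mice, and 22.6, 26.5 and 45.9 CPM in chow AKO mice. In HFD fl/fl mice they were 27.8, 39.7 and 52.1 CPM, and in HFD AKO mice 43.0, 52.2 and 55.3 CPM. All 6 HFD AKO mice were above 5 of the 6 chow AKO mice, and the sixth, replicate 5 at 45.9 CPM, was above 1 of them. The rise had a standard error of 0.17 and an adjusted p of 0.0124 in edgeR, and the exact permutation p was 0.0043. Without chow AKO replicate 5 the groups no longer overlapped, and in the 19 mice, where that held for 16.8% of all genes, the rise was 0.97. Across all alternatives *Lama2* kept its direction here, from 0.74 to 0.97.

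The same chain showed the largest interaction relative to its error among the 6. Its diet difference in fl/fl mice was 0.17 (standard error 0.16) with all mice. In the 19, which leave out the HFD fl/fl mice with the lowest *Lama2*, it was 0.41 (adjusted p = 0.0288 in edgeR), below the 1.5-fold criterion. The interaction was 0.63 (standard error 0.23, adjusted p = 0.257 in edgeR) with all mice and 0.56 (adjusted p = 0.200) in the 19. It was therefore not called, and over all genes 0.386% were called for the interaction. Between genotypes *Lama2* differed by −0.25 on chow (exact permutation p = 0.132) and by 0.39 on HFD (exact permutation p = 0.0130), neither called. The HFD difference was 0.14 in the 19 mice (exact permutation p = 0.143). On chow 5 of 6 AKO mice were below every fl/fl mouse, and in the 19 mice the 2 chow groups did not overlap (−0.42, exact permutation p = 0.0079, the smallest that 5 against 5 allows). That set leaves out the chow AKO mouse with the highest *Lama2*, so this p does not test genotype apart from that choice. In those 19 mice 1.13% of all genes did not overlap between the chow groups.

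*Lama5* was the most sparsely counted chain, with 36 to 258 counts per library and a counting error of 16.7% at the lowest. Its lowest, median and highest values were 5.499, 6.93 and 8.99 CPM in chow fl/fl mice and 6.32, 9.61 and 16.9 CPM in chow AKO mice. HFD fl/fl mice had 5.54, 7.36 and 10.3 CPM and HFD AKO mice 3.78, 6.23 and 10.02 CPM. The chow AKO group was thus the highest, and 3 of 6 HFD AKO mice were below all of it. The diet difference in AKO mice was −0.80 (standard error 0.24, adjusted p = 0.0284 in edgeR, exact permutation p = 0.0303), and it met the nominal threshold without chow AKO replicate 5 (−0.93) or without HFD AKO replicate 6 (−0.995). On chow AKO mice were higher than fl/fl by 0.62 (standard error 0.24, exact permutation p = 0.0390), with 4 of 6 above every fl/fl mouse, but the adjusted p was 0.793. The interaction was −0.85 (standard error 0.34, adjusted p = 0.273).

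*Lamb1*, the β1 chain, varied little between mice and had 1333 to 4386 counts per library. Its group medians were 250 CPM in chow fl/fl, 228 in chow AKO, 225 in HFD fl/fl and 264 in HFD AKO mice, and every library was between 177 and 271 CPM. No comparison was called, and the largest difference between 2 groups was 0.23 (standard error 0.11) between genotypes on HFD. In that comparison 4 of 6 AKO mice were above every fl/fl mouse (exact permutation p = 0.0325, adjusted p = 0.342 in edgeR).

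*Lamb2*, the β2 chain, showed no difference larger than its standard error of 0.20 in any of the 4 comparisons of 2 groups. Its medians were 68.4 CPM in chow fl/fl, 84.4 in chow AKO, 82.7 in HFD fl/fl and 77.2 in HFD AKO mice. The range was widest in chow fl/fl mice, from 50.2 to 146 CPM, where replicate 1 was the highest, as it was for *Lama4*.

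*Lamc1* followed *Lama4* more than it followed the β chains. Its lowest, median and highest values were 53.5, 119 and 161 CPM in chow fl/fl mice and 123, 149 and 214 CPM in chow AKO mice. HFD fl/fl mice had 48.3, 115 and 177 CPM, split like *Lama4* into replicates 1, 2 and 5 at 48.3, 61.2 and 78.6 and replicates 3, 4 and 6 at 152, 172 and 177. HFD AKO mice had 66.8, 89.2 and 174 CPM, and replicate 6 was again the highest. The diet difference in AKO mice was −0.70 (standard error 0.30, adjusted p = 0.0915 in edgeR, exact permutation p = 0.0108), with 5 of 6 HFD mice below every chow mouse. In fl/fl mice it was −0.04 with all mice and −1.06 in the 19, where it was called. There the groups of 5 and 3 did not overlap for *Lama4* and *Lamc1*, nor for 29.5% of all genes. For *Lamc1* too, the 19 leave out the 3 highest HFD fl/fl mice and the lowest chow fl/fl mouse, so its call there does not test diet apart from that choice. In the 19 mice, 11.8% of all genes were called between diets in fl/fl mice, against 1 of the 6 chains (*Lamc1*), and 15.7% in AKO mice, against 2 (*Lama2* and *Lama4*). With the adjusted p in place of the nominal one, 2 chains passed in fl/fl mice (*Lama4* and *Lamc1*), against 22.9% of all genes, and 4 in AKO mice (*Lama2*, *Lama4*, *Lama5* and *Lamc1*), against 27.7%.

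**Figure D3:**
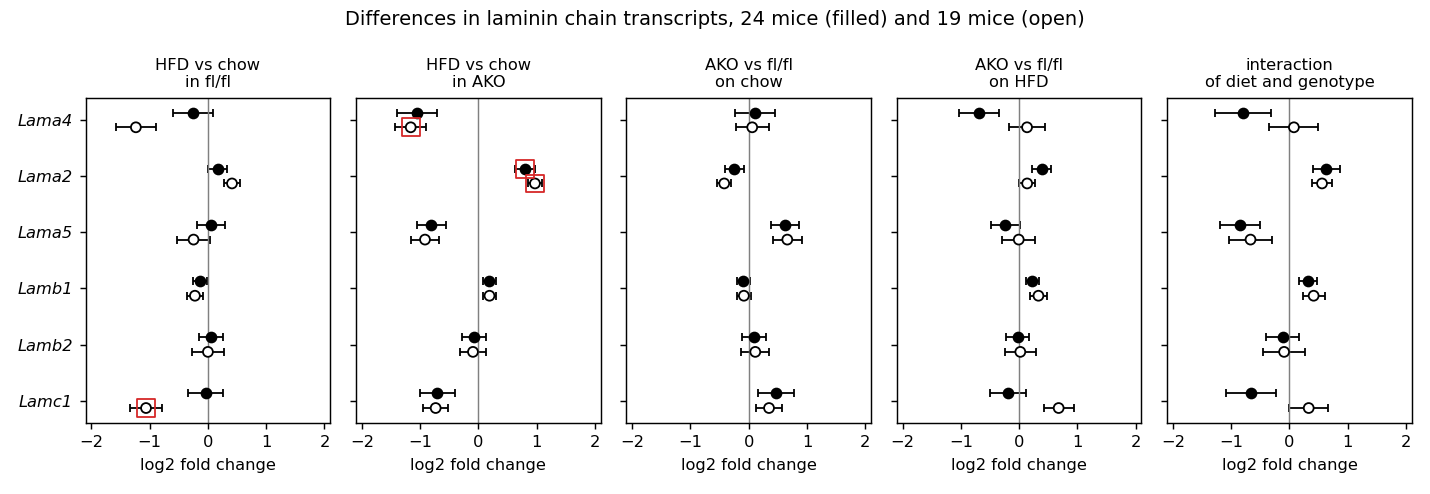
Log2 fold change of each chain (horizontal axis, with the standard error as a bar) in the 4 comparisons and the interaction, in 24 mice (filled) and in 19 mice (open), with red squares for called values. Only *Lama2* is called in 24 mice, between diets in AKO mice, and the open and filled points stand furthest apart for *Lama4* and *Lamc1* where HFD fl/fl mice enter.

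Elsewhere no chain was called in 24 mice, and few genes of any kind were. The shares called over all genes were 0.173% between diets in fl/fl mice, 0.113% between genotypes on chow and 0.173% between genotypes on HFD. At an unadjusted p under 0.05, 0 chains passed between diets in fl/fl mice, 1 between genotypes on chow, 1 between genotypes on HFD and 2 for the interaction. Over all genes these shares were 9.01%, 5.85%, 14.8% and 15.6%, in the same order. DESeq2 and limma-voom also called 0 chains in each of these 4. The ranges of the 2 groups overlapped for all 6 chains in all 4 comparisons of the 24 mice. Over all genes, the ranges did not overlap for 0.213% between diets in fl/fl mice, 6.86% between diets in AKO mice, 0.26% between genotypes on chow and 0.533% between genotypes on HFD. No chain was apart between genotypes on HFD in the 19 mice either, against 4.67% of all genes. The comparisons share groups of mice, so their values are not independent of each other.

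The ratio of 2 chains in the same library does not depend on how libraries are scaled. Between genotypes on HFD, *Lama4* relative to *Lamc1* did not overlap. The log2 ratio ran from −0.75 to −0.01 in fl/fl mice and from −1.04 to −0.87 in AKO mice, with means of −0.48 ± 0.26 and −0.98 ± 0.07 (SD, n = 6 each), a 0.71-fold ratio in AKO. HFD AKO replicate 6, the highest of its group for both chains, had a ratio within the others. On chow the ratio ran from −0.82 to 0.28 in fl/fl and from −1.19 to −0.09 in AKO mice, and the groups overlapped. This ratio was singled out after its values were seen, as the only 1 of 15 ratios between chains that did not overlap on HFD in the 24 mice, and it has no test. Of all pairs of tested genes, 0.548% did not overlap in this comparison. Of the 15019 ratios of *Lama4* to another gene, 18 did not, and all 18 were lower in AKO mice. In the other comparisons 0 of 15 ratios between chains were apart, against 0.244% of all gene pairs between diets in fl/fl mice, 6.47% between diets in AKO mice and 0.26% between genotypes on chow. In the 19 mice, *Lama4* to *Lamc1* and also *Lamb2* to *Lamc1* were apart between genotypes on HFD, 2 of 15 ratios, against 4.61% of all gene pairs. Between diets 9 of 15 ratios were apart there in fl/fl mice, against 28.0% of all gene pairs, and 7 of 15 in AKO mice, against 15.9%. Between genotypes on chow 2 of 15 were apart, *Lama2* to *Lama5* and *Lama2* to *Lamc1*, against 1.05%.

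The balance of *Lama2* and *Lama4* leaned towards *Lama2* on HFD in AKO mice, as their separate differences imply, though the ranges overlapped. The log2 ratio of *Lama2* to *Lama4* had a median of −2.12 on chow (−2.44 to −0.48) and of 0.20 on HFD (−1.10 to 0.51). In fl/fl mice the medians were −1.33 and −0.94 with wider ranges, −2.57 to −0.26 on chow and −2.28 to 0.37 on HFD. In the 19 mice this ratio did not overlap between diets in fl/fl mice, nor did 28.0% of all gene pairs. The same held there in AKO mice, against 15.9% of all gene pairs.

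**Figure D4:**
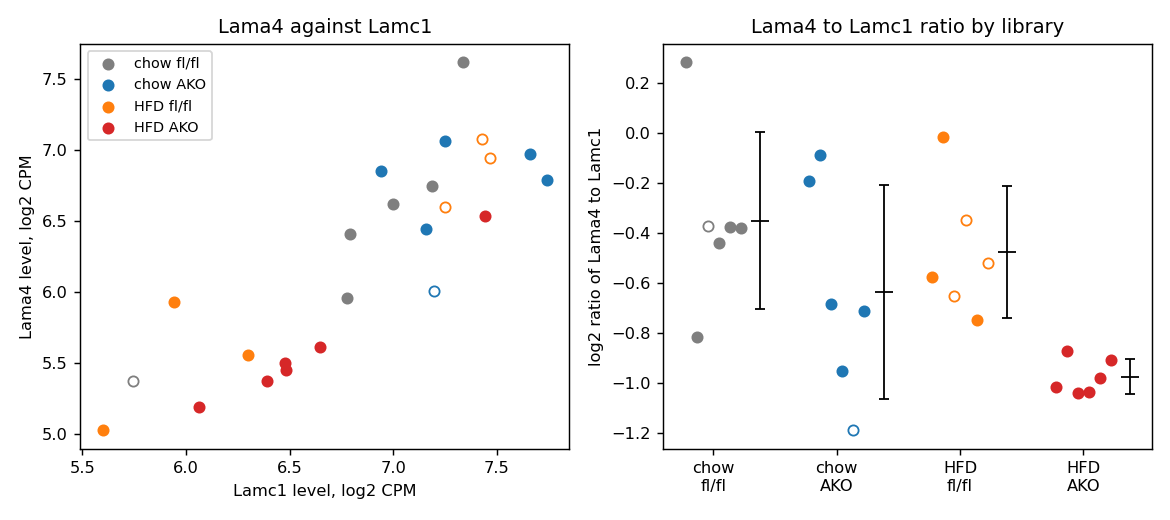
Left, *Lama4* against *Lamc1* in each library (both log2 CPM). Right, the log2 ratio of *Lama4* to *Lamc1* by group with the mean and SD, where open circles are the 5 mice outside the set of 19. The HFD AKO ratios sit between −1.04 and −0.87, below all 6 HFD fl/fl mice.

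Within groups, several chains varied together. Each library's log2 CPM was taken relative to its group mean, and the 15 pairs of chains were correlated over 24 libraries, with 100000 permutations within groups and Benjamini-Hochberg adjustment over the pairs. *Lama4* and *Lamc1* were the closest (Pearson's r = 0.88, adjusted permutation p = 0.00015; Spearman's rho = 0.85, adjusted permutation p = 0.00015), both from a raw p of 1e-05, the smallest that the permutations can give. The r was 0.86 without the 2 libraries farthest from the *Lama4* median, 0.82 without the 6 HFD fl/fl libraries, which form 2 sets, and 0.74 in the 19 mice. By group it was 0.90 in chow fl/fl, 0.29 in chow AKO, 0.95 in HFD fl/fl and 0.99 in HFD AKO mice.

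*Lama5* also varied with *Lamc1* (r = 0.62, adjusted permutation p = 0.0037; rho = 0.65, adjusted permutation p = 0.0070; r = 0.53 without the 2 farthest). With *Lama4* its r was 0.58 (adjusted permutation p = 0.0071; rho = 0.59, adjusted permutation p = 0.0157; r = 0.55 without the 2 farthest), and 0.41 in the 19 mice. *Lama4* and *Lamb2* had an r of 0.58 (adjusted permutation p = 0.0368) that fell to 0.33 without the 2 farthest libraries, with a rho of 0.45 (adjusted permutation p = 0.107), so the pooled r depended on those libraries. The r of this pair was between 0.55 and 0.72 in each of the 4 groups, 0.62 without the HFD fl/fl libraries and 0.83 in the 19 mice. The only negative relation that passed was that of *Lama2* to *Lama4* (r = −0.54, adjusted permutation p = 0.0331; rho = −0.55, adjusted permutation p = 0.0536). That relation did not hold in the 19 mice (r = −0.08) and was −0.46 without the 2 farthest libraries and −0.34 without the HFD fl/fl libraries, where neither passed. The permutations compared each pair with no relation, and not with other genes. For each positive pair that passed, many other genes had a higher r with the same chain, as the ranks below show.

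Markers of other cells moved with the chains, and their part in the results was not tested. Summed over the 8 adipocyte markers, group medians were 17997 CPM in chow fl/fl, 23050 in chow AKO, 12059 in HFD fl/fl and 7663 in HFD AKO mice, and *Adipoq*, *Plin1* and the other markers were all detected, as the tissue label requires. Over the 7 macrophage markers the medians were 6674, 3514, 5904 and 8431 CPM, in the same order of groups. The 7 stromal progenitor markers had medians of 5461, 4358, 4664 and 6219 CPM, lowest in chow AKO and highest in HFD AKO mice. The same groups were lowest and highest for the macrophage markers and for *Lama2*. In each of these marker lists chow fl/fl was above HFD fl/fl, unlike for *Lama2*. For the 8 endothelial markers the medians were 604, 798, 527 and 431 CPM, and for the 7 mural markers 382, 641, 351 and 265 CPM. Epididymal epithelium was near absent, with 2 of its 6 markers in the table and at most 17.6 CPM in a single chow fl/fl library.

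For correlations, each list was taken as the mean log2 CPM of its tested markers, relative to the group mean. *Lama4* tracked these list means closely within groups. Its r was 0.89 with adipocyte, 0.86 with endothelial and 0.84 with mural markers, and −0.81 with macrophage markers (adjusted permutation p = 0.000165 for adipocyte and macrophage and 0.00022 for endothelial and mural markers, over 66 pairs of chain and list, of which 32 were at or below 0.05). The rho values were 0.91, 0.84, 0.83 and −0.81 (adjusted permutation p = 0.000132 for each), and without the 2 farthest libraries r was 0.85, 0.81, 0.77 and −0.73. The study set mice aside by a principal component analysis. With the position of a library on the first component, the r of *Lama4* was −0.95 (adjusted permutation p = 0.000165, and −0.94 without the 2 farthest). The rho was −0.97 (adjusted permutation p = 0.000132). The r with this component was −0.82 for *Lamc1*, 0.66 for *Lama2*, −0.59 for *Lama5*, −0.56 for *Lamb2* and −0.40 for *Lamb1*. Whether the study chose mice by this component was not tested. Chow fl/fl replicate 1, at −91.8 on it, was not among the mice inferred to be set aside. HFD fl/fl replicate 3, at −9.88, was among them. With the library total the r of *Lama4* was −0.03.

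*Lama2* ran the other way. Its r was 0.58 with macrophage, −0.61 with endothelial and −0.58 with erythroid markers (adjusted permutation p = 0.0205, 0.0146 and 0.0190). It varied with the stromal progenitor markers (r = 0.74, adjusted permutation p = 0.0046; rho = 0.59, adjusted permutation p = 0.0284; 0.65 without the 2 farthest) and against the adipocyte markers (r = −0.68, adjusted permutation p = 0.0065; rho = −0.65, adjusted permutation p = 0.0104; −0.67 without the 2 farthest). *Lama5* varied with the endothelial markers (r = 0.71, adjusted permutation p = 0.0014; rho = 0.73, adjusted permutation p = 0.0021; 0.66 without the 2 farthest). It was about as close to the mural markers (r = 0.67, adjusted permutation p = 0.0013; rho = 0.72; 0.70 without the 2 farthest). *Lamc1* varied with the mural markers (r = 0.81, adjusted permutation p = 0.000165; rho = 0.76, adjusted permutation p = 0.000566; 0.73 without the 2 farthest). With the endothelial markers its r was 0.75 (adjusted permutation p = 0.0014; rho = 0.70; 0.72 without the 2 farthest). *Lamb1* ran against the lymphoid markers (r = −0.57, adjusted permutation p = 0.0178; rho = −0.57, adjusted permutation p = 0.0239; −0.58 without the 2 farthest). That relation was seen too for *Lama4* (r = −0.66, adjusted permutation p = 0.0038) and *Lamc1* (r = −0.60, adjusted permutation p = 0.0146). The r of *Lamb1* with the adipocyte, endothelial, mural, stromal progenitor and macrophage markers was between −0.29 and 0.47 and did not pass. *Lamb2* had the signs of *Lama4*, with an r of 0.68 with adipocyte, 0.66 with endothelial, 0.58 with mural and −0.72 with macrophage markers. The adjusted permutation p was 0.0022, 0.0014, 0.0121 and 0.0038, and r without the 2 farthest was 0.55, 0.62, 0.46 and −0.49. With adipocyte and macrophage markers r was 0.58 and −0.51 for *Lama5* and 0.70 and −0.60 for *Lamc1*. With the erythroid markers r was 0.70 for *Lama4*, 0.69 for *Lamb2* and 0.55 for *Lama5* (adjusted permutation p = 0.0038, 0.0019 and 0.0178).

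**Figure D5:**
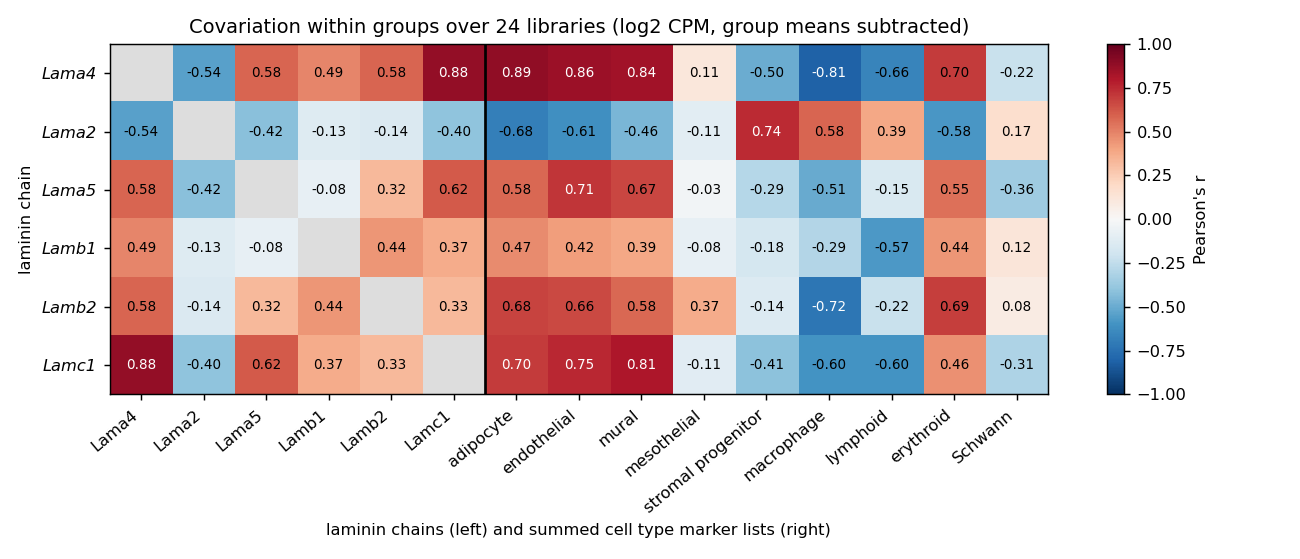
Pearson's r (colour and number) over 24 libraries between each chain (rows) and the other chains or the marker lists of 9 cell types (columns). Group means were subtracted. Each list is the mean log2 CPM of its tested markers, although the axis calls the lists summed. *Lama4*, *Lamc1*, *Lama5* and *Lamb2* are red with adipocyte, endothelial and mural markers and blue with macrophage markers. *Lamb1* is paler in the same colours, and *Lama2* shows the opposite ones.

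The genes most like each chain were ranked by the same measure over 24 libraries among 14987 genes with a symbol. For *Lama4* they were *Plpp3* (r = 0.97), a lipid phosphatase, *Ccdc80* (0.97), a secreted matrix protein of adipose tissue, and *Zfp106* (0.96). Of the chains that varied with *Lama4*, *Lamc1* ranked 369, *Lama5* 3216 and *Lamb2* 3217. *Lamc1* was most like *Clic4* (0.95), *Cul3* (0.94) and *Lysmd3* (0.93), and *Lama4* ranked 142 and *Lama5* 2457 for it. *Lama5* was most like *Afap1l1* (0.85), *Tie1* (0.84), an endothelial receptor that is itself among the endothelial markers, and *Pcdh1* (0.83). *Lama2* was most like *Gxylt2* (0.85), a glycosyltransferase that modifies Notch, *Rgl2* (0.84) and *Dpep3* (0.83). *Lamb1* was most like *Col18a1* (0.85), a basement membrane collagen, *Cercam* (0.79) and *Tbc1d15* (0.78). *Lamb2* was most like *Peg13* (0.88), *Iqsec1* (0.87) and *Phldb1* (0.86). For *Lama5*, *Lamc1* ranked 445 and *Lama4* 723, and for *Lamb2*, *Lama4* ranked 1040. The genes named as most like a chain are the highest values of a search over all genes. Neither they nor the ranks have a test.

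Other laminin genes were sparse. Of *Lama1*, *Lama3*, *Lamb3*, *Lamc3* and the laminin-related *Ntn4*, 4 were tested, and *Lama1* was not found in the count table by its symbol. *Lama3* had 5 to 34 counts per library, *Lamc3* 12 to 54 and *Lamb3* 19 to 115. None was called in any comparison of the 24 mice, where the share over all genes was 0.113% to 4.12%. *Ntn4*, which encodes netrin-4, a secreted protein that binds the γ1 chain and loosens laminin networks, had 29 to 280 counts and the lowest p of this list between diets in AKO mice, −1.62 (standard error 0.45, adjusted p = 0.0225 in edgeR), in the direction of *Lama4* and *Lamc1*. The lowest p between diets in fl/fl mice was that of *Lamb3* (0.30, adjusted p = 0.761), between genotypes on chow again that of *Lamb3* (0.32, adjusted p = 0.952), and on HFD that of *Lamc3* (−0.58, adjusted p = 0.339). *Ntn4* was called in the 19 mice between diets in AKO mice (−1.74, adjusted p = 0.0014 in edgeR), the 1 call of the 4 genes there, and was −1.60 between diets in fl/fl mice (adjusted p = 0.0143 in edgeR), not called. Over all genes 15.7% were called in AKO mice there and 11.8% in fl/fl mice.

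Of the 17 other basement membrane genes tested, the type IV collagens, nidogens, perlecan, agrin and their partners, 1 was called, *Col4a4*, which fell by 1.53 on the log2 scale on HFD in AKO mice (standard error 0.38, adjusted p = 0.0179 in edgeR). Over all genes 4.12% were called there. The list had a median of −0.39 there, against −0.39 for the 6 laminin chains and −0.0031 for all genes. With an adjusted p in place of the nominal one, 4 of the 17 were lower there and 1 was higher, against 16.1% of all genes in either direction. In the other comparisons 0 of 17 were called, where 0.113% to 0.386% of all genes were. *Fbln1*, a matrix protein of basement membranes and elastic fibres, was called too in the 19 mice, higher on HFD in AKO mice by 1.15 (adjusted p = 0.0020 in edgeR), so that 1 of 17 rose and 1 fell. Over all genes 15.7% were called there. The lowest p was that of *Col4a1* between diets in fl/fl mice (0.29, adjusted p = 0.535) and between genotypes on chow (0.43, adjusted p = 0.730), of *Col15a1* between genotypes on HFD (0.30, adjusted p = 0.303) and of *Nid2*, which links laminin to type IV collagen, for the interaction (−1.09, adjusted p = 0.250).

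Among 15 laminin receptors tested, 2 fell on HFD in AKO mice and 0 rose in the 24 mice, where 4.12% of all genes were called. *Itga7*, the α7 integrin that binds laminins, fell by 1.42 (standard error 0.32, adjusted p = 0.0134 in edgeR), and *Sdc4*, a heparan sulfate proteoglycan of the cell surface, fell by 0.71 (standard error 0.19, adjusted p = 0.0208). The median of the 15 was −0.51, and 6 of them were lower under the adjusted p. *Plxnd1* was called in 3 comparisons by its nominal p, where 0.113% to 0.386% of all genes were. It is chiefly known as a semaphorin receptor, and the study states that it can also bind LAMA4, which was not measured here. *Plxnd1* was higher on HFD in fl/fl mice by 0.72 (adjusted p = 0.239 in edgeR) and higher in AKO than in fl/fl mice on chow by 0.74 (adjusted p = 0.278), and its interaction was −1.08 (adjusted p = 0.123). The 2 differences share the chow fl/fl mice. On HFD the lowest p between genotypes was that of *Itga1* (−1.004, adjusted p = 0.293). Among the 19 mice, 4 receptors fell and 1 rose between diets in AKO mice, against 15.7% of all genes. *Itga6* (−1.20), the α6 integrin, and *Itga1* (−1.43) joined *Itga7* and *Sdc4*, and *Sdc1* rose by 1.23. Between diets in fl/fl mice 2 fell there, *Itga6* (−1.16) and *Dag1* (−0.95), which encodes dystroglycan, and *Plxnd1* rose by 0.75, against 11.8% of all genes.

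Of 9 tested genes for the glycosylation of dystroglycan, the sugar chains through which it binds laminin, 0 were called in any comparison of the 24 mice. The share over all genes was 0.113% to 4.12%. The median of the 9 genes was −0.0098 between diets in AKO mice, where *Rxylt1*, a xylosyltransferase of this pathway, had the lowest p (−0.96, adjusted p = 0.0413 in edgeR). *Pomgnt2*, which adds N-acetylglucosamine to the core sugar, had the lowest p between diets in fl/fl mice (0.46, adjusted p = 0.516) and between genotypes on chow (0.33, adjusted p = 0.916). *Rxylt1* was the 1 gene of the 9 called between diets in the 19 mice, with a difference of −1.62 in fl/fl mice (adjusted p = 0.000177 in edgeR) and of −1.03 in AKO mice (adjusted p = 0.000351 in edgeR). Over all genes 11.8% and 15.7% were called there, in the same order.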

How the data were processed

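RNA of eWAT was made into QuantSeq 3′ libraries, 1 per mouse. Forward reads of 50 bases were aligned to GRCm38 and counted by the authors, who used Lexogen's pipeline for QuantSeq data on Bluebee, and the submitters' notes name R 4.0.3 and DESeq2 1.30. They deposited raw counts per gene, used for every value here, and a second table of counts divided by size factors (a normalized signal), of which only symbols and positions were used here. Genes at 1 CPM or more in 3 or more libraries were tested with edgeR 4.0.16 (TMM, quasi-likelihood, 1 coefficient per group, all 24 mice). Calls required a 1.5-fold change, a nominal p no higher than 0.001 and a mean of 2 CPM in whichever group was higher. Adjusted p-values are Benjamini-Hochberg over all 15020 genes. Levels are log2 CPM with a prior count of 2. Exact permutation tests were two-sided (scipy 1.17.1). Alternatives used limma 3.58.1 (voom), DESeq2 1.42.0, RLE factors, other filters, only the groups compared, a replicate block, 19 mice, and each mouse left out. Scripts were tested on simulated data. Each library is 1 mouse, and no 2 libraries of a group agreed within sampling noise. Counting errors cover counting only. Positions and exon 3 came from GENCODE M21, and all 6 positions equal the deposited ones. Named genes are all 6 chains, listed genes that were called or, where none was, the gene with the lowest p of its list, and the 3 genes most like each chain. The chains and lists were chosen with earlier results of these data known. Some listed genes are not reported here and were left out of their lists' counts.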

Additional observations from a re-analysis of the deposited data

Results flagged for a closer look

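In 3 of the 24 sets of 6 mice (6 chains in 4 groups) the highest or lowest library stood off from the other 5 by more than Dixon's critical value, which chance gives in about 1 in 20 sets. *Lama2* in chow AKO replicate 5 was at 5.53 log2 CPM, with the others between 4.51 and 4.88. *Lama4* in HFD AKO replicate 6 was at 6.53 log2 CPM, with the others between 5.19 and 5.61. *Lamc1* in chow fl/fl replicate 3 was at 5.74 log2 CPM, with the others between 6.78 and 7.34. Chow AKO replicate 5 and chow fl/fl replicate 3 are among the 5 mice outside the set of 19, and HFD AKO replicate 6 is not.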

How the results depend on the processing

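Without 1 mouse at a time, 1 to 2 chains were called between diets in AKO mice, *Lama5* joining *Lama2* without chow AKO replicate 5 or HFD AKO replicate 6, and 0 in every other comparison. Between diets in AKO mice, 2 were called with only the 2 groups compared and in 19 mice (*Lama2*, *Lama4*), 3 with limma-voom in 19 mice (added after the data were seen) or an adjusted p, 4 with sample weights and 0 at a fold of 2. Over all genes 15.7% were called in 19 mice with edgeR and 16.1% with the adjusted p. Shares over all genes under the other settings are not given here, so those counts are not read as a result about the chains. *Lamc1* was the 1 chain called between diets in fl/fl mice in 19 mice, against 11.8% of all genes with edgeR, also with limma-voom. *Lama2* was the 1 called for the interaction with sample weights (0.91). *Lama4* between diets in AKO mice was −1.25 with sample weights, −1.06 with only the 2 groups, −1.16 in 19 mice and −1.22 in 19 mice with limma-voom. Its sign turned with sample weights between diets in fl/fl mice (0.0090), and in 19 mice between genotypes on HFD (0.14, limma-voom 0.11) and for the interaction (0.077). Other signs that turned in 19 mice (limma-voom in brackets) were *Lama5* between diets in fl/fl mice, −0.25 (−0.23), *Lamb2* there, −0.00050, and between genotypes on HFD, 0.021 (0.037), and *Lamc1* between genotypes on HFD, 0.68 (0.64), and for the interaction, 0.33 (0.31). *Lamc1* between diets in fl/fl mice was 0.10 with sample weights. The causes were not tested.

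With 1 mouse left out, *Lama4* ran from −0.45 to 0.065 between diets in fl/fl mice and from −0.048 to 0.43 between genotypes on chow. In fl/fl mice between diets *Lama5* ran from −0.069 to 0.12, *Lamb2* from −0.053 to 0.32 and *Lamc1* from −0.21 to 0.12. *Lamb2* ran from −0.0093 to 0.36 between genotypes on chow and from −0.13 to 0.042 on HFD. Of the 5 correlations that passed, 3 passed without the 2 farthest libraries, and 3 without the 6 HFD fl/fl libraries (added after the data were seen).

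With the replicate block, *Lama2* between diets in AKO mice was 0.82 and *Lama4* −1.09, and no call of a chain changed. Deviations of same-numbered libraries correlated with a median of 0.0011 over 36 pairs (−0.534 to 0.714), against −0.0105 over 180 pairs of different numbers, so the numbers were not treated as pairs. Depth limits *Lama5* most, with 36 counts in its lowest library.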
